A study of Mus musculus with 14 samples.

Results

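H3K4me1, the monomethylated form of lysine 4 of histone H3, was compared directly between mouse embryonic stem cells treated with MM-401, an inhibitor of Mll1, and cells given 4-hydroxytamoxifen (4-OHT). The material was the list of enriched regions (peaks) called in each of these H3K4me1 libraries, 82150 peaks for MM-401 and 119230 for 4-OHT. Together they made up 201380 of the 715437 peaks on nuclear chromosomes in the 10 lists of the series (28.1%). Both cultures were blastocyst-derived stem cells of the strain C57BL/6J with the genotype Mll1fl/fl; Cre-ER TM, so the floxed alleles and the inducible Cre were present under both treatments. The MM-401 culture had received 100 µM of the inhibitor and the 4-OHT culture 5 µM of the hormone analogue, each for 9 days and 3 passages on Matrigel, with LIF, 5% serum and 15% of a serum replacement in the medium. Fixation was in 1% paraformaldehyde for 10 minutes, and about 2 µg of antibody was used. Each treatment was represented by 1 library, so every difference below is between these libraries, has no replicate check and carries no p-value. In cultures measured in bulk, fewer cells carrying the mark and less of it per cell cannot be told apart.

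H3K4me1 is laid down at enhancers and on the flanks of transcription starts, while H3K4me3 sits on the starts themselves and H3K4me2 spans both. In mammals the mark is written by a family of SET-domain methyltransferases that share the subunits WDR5, RBBP5, ASH2L and DPY30. Mll1, the protein of Kmt2a, is a member of this family and needs to bind WDR5 for full activity. MM-401 blocks that contact and so inhibits the enzyme, whereas 4-OHT lets the Cre-ER fusion enter the nucleus and cut the floxed alleles. The comparison asks whether blocking the enzyme and removing its gene leave H3K4me1 in the same places and at the same level.

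The libraries differed in depth. MM-401 held 22.2 M filtered tags (M stands for 1000000, counted after removal of duplicates) and 4-OHT held 61.8 M, a ratio of 2.78. The input of MM-401 held 12.2 M and that of 4-OHT 55.0 M. Per the file headers the MM-401 library came from a folder numbered 3 and the 4-OHT library from a folder numbered 2, and this processing group and the depth cannot be told apart from the treatment. MM-401 peaks held 58.5% of the tags over 221 Mb and 4-OHT peaks 67.3% over 338 Mb. Levels are given as tags per M filtered tags, and scaling to tags in peaks would move every log2 ratio of MM-401 over 4-OHT up by 0.20.

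Kmt2a itself was looked at first. Peaks covered 18.5% of the gene in MM-401 cells and 47.3% in 4-OHT cells. At its 5′ end a peak of 5561 bp with 14.9 tags per M stood in MM-401 cells, against 18188 bp and 39.9 tags per M in 4-OHT cells. That 4-OHT peak also spanned another MM-401 peak, of 4537 bp with 14.3 tags per M. Methylated histones at the gene do not test whether it was cut, since the deleted stretch is not given in the sources used here. The stem cell label was set against marker genes. All 7 stem cell markers (Pou5f1, Sox2, Nanog, Esrrb, Zfp42, Dppa3 and Klf4) had a peak within 1 kb of a gene end in both lists, at 6.48 to 80.7 tags per M in MM-401 cells and 20.1 to 91.7 in 4-OHT cells. Other lineages did not stand apart by the presence of a peak. Primitive endoderm markers had a peak at 3 of 4 genes in MM-401 cells and 4 of 4 in 4-OHT cells, trophectoderm markers at 3 of 4 in each, neural precursor markers at 3 of 3 in each, mesoderm markers at 3 of 3 in each, and fibroblast markers at 2 of 3 in MM-401 cells and 3 of 3 in 4-OHT cells. The highest marker of these lineages had 38.5 tags per M in MM-401 cells (trophectoderm) and 29.5 in 4-OHT cells (neural precursor). That was below the highest stem cell marker and above the lowest, so the levels overlapped. H3K4me1 at gene ends therefore did not test the cell type, and Elf5 alone had no peak in either list.

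The promoters of 4 genes are shown because they led the rankings of genes that differ between the lists, by the score of the caller for genes marked in 1 list alone and by the ratio of tags for genes marked in both. Each runs 250 bases before to 50 after the annotated start, taken from RefSeq on GRCm38.p6 and read 5′ to 3′ along the gene, with CG dinucleotides in capitals. Elobl (chr11:88966882-88967181, minus strand) led the genes marked in MM-401 alone, and its window lay under an MM-401 peak only. Zfp763 (chr17:33033332-33033631, minus strand) led the genes marked in 4-OHT alone, and its window lay under a 4-OHT peak only. The peak that led the ranking ended at 33033014, outside the window, so the window lay under another 4-OHT peak. Atf1 (chr15:100227609-100227908, plus strand) had the highest ratio of MM-401 over 4-OHT at its ends among the 12377 genes with at least 100 tags in each library, although the window itself lay under a 4-OHT peak and in a gap of the MM-401 list. Jade1 (chr3:41555484-41555783, plus strand) had the lowest ratio among the same genes, and its window lay under a peak in both.
Elobl: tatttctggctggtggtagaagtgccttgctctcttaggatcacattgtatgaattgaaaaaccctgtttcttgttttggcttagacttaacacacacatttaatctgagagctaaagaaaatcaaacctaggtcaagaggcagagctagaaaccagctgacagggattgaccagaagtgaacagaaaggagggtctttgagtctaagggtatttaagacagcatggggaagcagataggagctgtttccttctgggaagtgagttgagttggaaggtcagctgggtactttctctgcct
Zfp763: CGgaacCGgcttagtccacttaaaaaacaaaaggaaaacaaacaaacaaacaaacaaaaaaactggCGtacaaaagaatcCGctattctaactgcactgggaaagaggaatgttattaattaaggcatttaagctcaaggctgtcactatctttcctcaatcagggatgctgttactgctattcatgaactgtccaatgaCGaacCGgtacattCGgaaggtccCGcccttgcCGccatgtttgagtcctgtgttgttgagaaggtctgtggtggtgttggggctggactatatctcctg
Atf1: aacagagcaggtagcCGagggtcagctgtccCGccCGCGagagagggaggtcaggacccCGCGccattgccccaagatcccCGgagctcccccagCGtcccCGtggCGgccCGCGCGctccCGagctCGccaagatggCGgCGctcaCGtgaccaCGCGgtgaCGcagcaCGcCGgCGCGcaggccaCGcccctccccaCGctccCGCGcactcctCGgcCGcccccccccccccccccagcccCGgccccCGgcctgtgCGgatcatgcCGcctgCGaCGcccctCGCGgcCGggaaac
Jade1: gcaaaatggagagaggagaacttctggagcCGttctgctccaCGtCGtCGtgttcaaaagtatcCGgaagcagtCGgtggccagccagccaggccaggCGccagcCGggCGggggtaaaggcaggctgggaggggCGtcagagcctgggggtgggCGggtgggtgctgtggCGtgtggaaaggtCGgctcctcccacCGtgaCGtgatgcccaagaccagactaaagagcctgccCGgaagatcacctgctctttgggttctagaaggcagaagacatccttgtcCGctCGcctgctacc
The windows held 0, 9, 40 and 18 CG in this order.

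Nearly every region with H3K4me1 in MM-401 cells also had it in 4-OHT cells, while the 4-OHT list went on to many more, mostly weak, regions. By an overlap of at least 1 bp, 97.5% of MM-401 peaks (95% interval 97.4 to 97.6, which here and below covers counting error only) were shared with 4-OHT, and 2069 were not. Of the 4-OHT peaks, 60.9% (60.7 to 61.2) were shared with MM-401, and 46580 were not. A gene end was the stretch within 1 kb of either end of a protein-coding gene. There, 99.3% of MM-401 peaks and 82.8% of 4-OHT peaks were shared, and away from gene ends 96.8% of MM-401 peaks and 54.9% of 4-OHT peaks were. Counted in bases, 95.01% of what the MM-401 list covered was also covered in 4-OHT, and 62.2% of what the 4-OHT list covered was also covered in MM-401. These shares depended on how many peaks each list held: with the 4-OHT list cut to its 82150 highest scores, 90.0% of MM-401 peaks and 80.6% of 4-OHT peaks were shared.

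Sharing followed the strength of a peak, and it did so more steeply in the deeper 4-OHT list. The MM-401 list held only 9 peaks under 1 tag per M and the 4-OHT list 7283. MM-401 could thus hardly have a peak at the level of the weakest 4-OHT peaks, and their low share was largely set in advance. Among 4-OHT peaks under 1 tag per M, 8.39% (7.76 to 9.05) overlapped an MM-401 peak. The share was 22.2% at 1 to 2 tags per M, 63.6% at 2 to 4, 92.1% at 4 to 8, 98.8% at 8 to 16 and 99.8% at 16 to 32. MM-401 peaks were already shared at 89.7% (89.1 to 90.3) between 1 and 2 tags per M, and reached 99.4% between 4 and 8. Above that their share came down again, to 98.9% at 8 to 16 tags per M, 97.9% at 16 to 32 and 95.05% (94.0 to 96.0) from 32 up. The strongest 4-OHT peaks showed no such drop, with 99.7% (99.3 to 99.9) shared from 32 tags per M up.

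**Figure D1:**
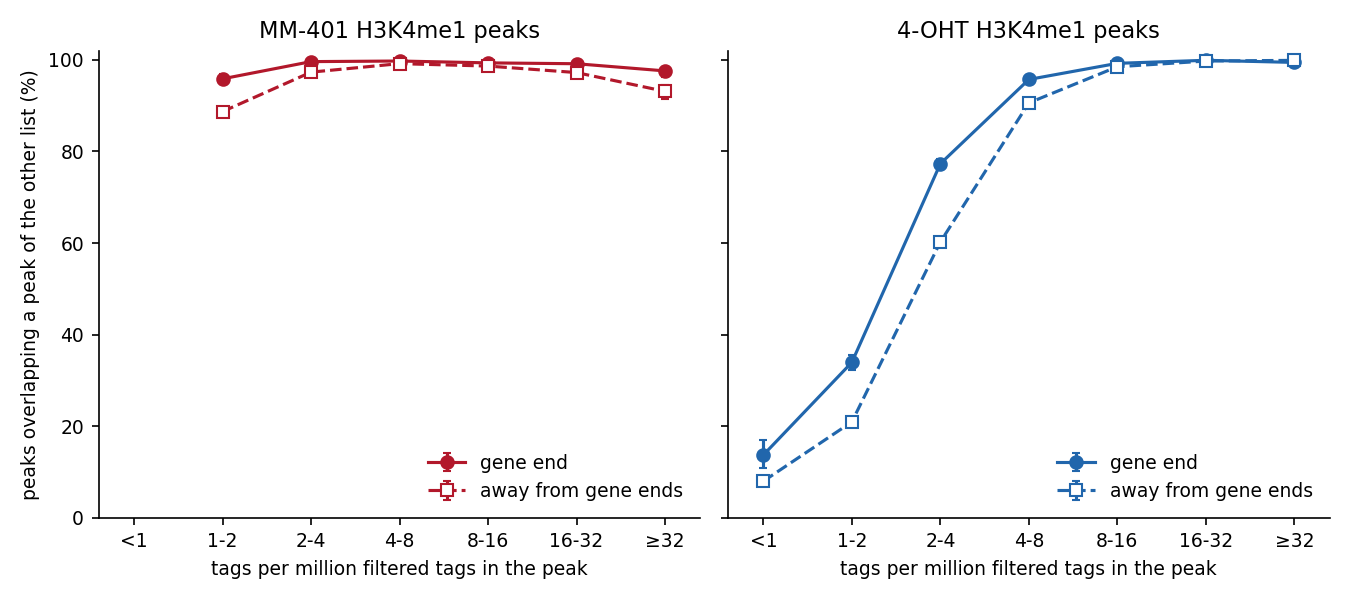
Share of MM-401 peaks (left) and of 4-OHT peaks (right) that overlap a peak of the other list, by tags per M filtered tags, at gene ends (filled) and away from them (open); bars are exact 95% binomial intervals and classes under 50 peaks are left out. The 4-OHT curves climb steeply with strength, while the MM-401 curves stay near the top and dip for the strongest peaks away from gene ends, to 93.1%.

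Peaks of a single list were weaker and narrower than shared ones, and a smaller share of them lay at gene ends. The 2069 MM-401-specific peaks had a median of 2.07 tags per M over 1303 bp, against 4.32 tags per M over 1998 bp for shared MM-401 peaks. The 46580 4-OHT-specific peaks had a median of 1.55 tags per M over 1380 bp, against 4.79 over 2578.5 bp. Gene ends held 7.59% of the MM-401-specific and 27.2% of the shared MM-401 peaks, and 9.50% of the 4-OHT-specific and 29.3% of the shared 4-OHT peaks. The nearest peak of the other list was a median of 4.22 kb away for MM-401-specific peaks and 6.09 kb away for 4-OHT-specific ones.

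Specific peaks also carried less of the higher methylation states. H3K4me2 peaks of the same cells overlapped 22.0% of MM-401-specific and 67.1% of shared MM-401 peaks. In 4-OHT cells they overlapped 40.6% of specific and 86.6% of shared peaks. H3K4me3 of the same cells overlapped 10.1% of MM-401-specific peaks, against 38.6% of shared ones, and 17.3% of 4-OHT-specific peaks, against 55.2% of shared ones. Where MM-401 alone had a peak, 33.3% of the sites lay under H3K4me2 in 4-OHT cells, against 86.8% of shared MM-401 peaks. Where 4-OHT alone had one, 14.0% lay under H3K4me2 in MM-401 cells, against 68.8% of shared 4-OHT peaks. On the X chromosome 98.0% of MM-401 peaks and 47.5% (45.6 to 49.4) of 4-OHT peaks were shared, against 97.5% of MM-401 and 61.3% of 4-OHT peaks on the autosomes. X peaks were also weaker, at a median of 1.20 tags per M for specific 4-OHT peaks, against 1.57 on the autosomes.

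Where both lists had H3K4me1, the tags summed inside each list's own peaks were close and the called extent was not. Overlapping peaks were joined into 70707 shared regions, 20852 at gene ends and 49855 away from them. At gene ends the median region held 5.67 tags per M over 2402 bp in MM-401 cells and 6.23 over 3127 bp in 4-OHT cells. Away from them it held 4.19 tags per M over 1993 bp in MM-401 cells and 4.47 over 2490 bp in 4-OHT cells. The median log2 ratio of tags per M, MM-401 over 4-OHT, was -0.04 at gene ends (middle 50% of regions -0.33 to 0.20) and 0.00 away from them (-0.32 to 0.29). The median log2 ratio of width was -0.24 at gene ends and -0.23 away, and 12.04% of regions at gene ends and 17.8% of those away were wider in MM-401. Per kb of peak the median log2 ratio of tags was 0.25 at gene ends and 0.27 away. By this density 87.5% of regions at gene ends and 86.8% of those away were higher in MM-401. With scaling to tags in peaks the tag medians stood at 0.16 at gene ends and 0.21 away, so the sign of the difference in amount rests on the scaling. The difference in width does not use the scaling, but widths were not compared at equal depth, and depth cannot be told apart from the treatment.

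Few shared regions differed by a factor of 2 or more. In MM-401, 1197 of 70707 regions (1.69%) were at least 2-fold higher and 2881 (4.07%) at least 2-fold lower. At gene ends 97 regions (0.465%) were higher and 769 (3.69%) lower, and away from them 1100 (2.21%) were higher and 2112 (4.24%) lower. Regions without H3K4me2 or H3K4me3 in either treatment were different: their median log2 ratio was 0.18, with 7.50% at least 2-fold higher and 3.24% lower in MM-401. These 8716 regions were weak, at 2.34 tags per M in MM-401 cells and 2.15 in 4-OHT cells, and a weak region had to pass the caller in the shallower library to be counted. Regions with H3K4me2 but no H3K4me3 stood at -0.05, and regions with H3K4me3 in either treatment at -0.02.

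**Figure D2:**
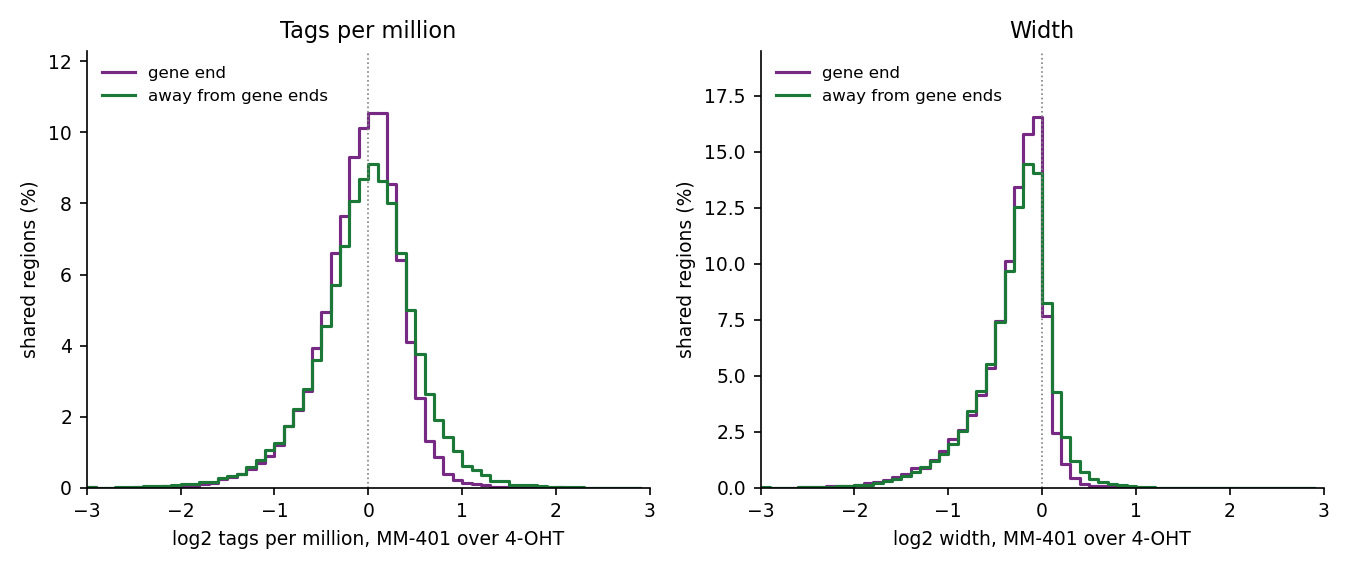
Log2 ratio of MM-401 over 4-OHT in shared regions at gene ends and away from them, for tags per M (left) and for width (right), as the percent of regions in steps of the ratio. The tag ratios centre close to 0, while the width ratios lie mostly below 0, with medians of -0.24 and -0.23.

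The lists also cut the same stretch of chromatin differently. In 88.0% of shared regions 1 MM-401 peak met 1 4-OHT peak. In 6633 regions 1 4-OHT peak spanned at least 2 MM-401 peaks, and in 1091 regions 1 MM-401 peak spanned at least 2 4-OHT peaks. Among regions of 1 peak each the median log2 width ratio was -0.27 where the 4-OHT peak was 2 to 5 kb wide, -0.16 at 10 to 20 kb and -0.06 at 20 to 30 kb. It was 0.18 where the 4-OHT peak was under 1 kb and -0.18 at 1 to 2 kb. The 4-OHT width sets the class and is also the lower term of the ratio. Regions where 1 4-OHT peak spanned several MM-401 peaks are left out of these classes. The trend across classes therefore partly follows from the selection and was not tested.

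Some very wide H3K4me1 domains of MM-401 had no 4-OHT peak at all. Of MM-401 peaks 10 to 20 kb wide, 94.9% were shared, and the share was 87.8% at 20 to 30 kb, 80.9% at 30 to 50 kb and 0 of 6 above 50 kb, which allows up to 45.9%. Of 4-OHT peaks, 99.3% were shared at 10 to 20 kb and at 20 to 30 kb, 99.4% at 30 to 50 kb and 13 of 14 above 50 kb. The widest MM-401 peak, 68454 bp with 271 tags per M, lay over Jarid2, an accessory protein of Polycomb repressive complex 2 (chr13:44734123-44802576). Next came Tet1, which oxidises methylated cytosine (57666 bp, 224 tags per M), Etl4 (54684 bp, 245), Ncoa3, a transcriptional coactivator (54443 bp, 247), and Rbpms, an RNA-binding protein (53096 bp, 206). No 4-OHT peak overlapped any of these 5.

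**Figure D3:**
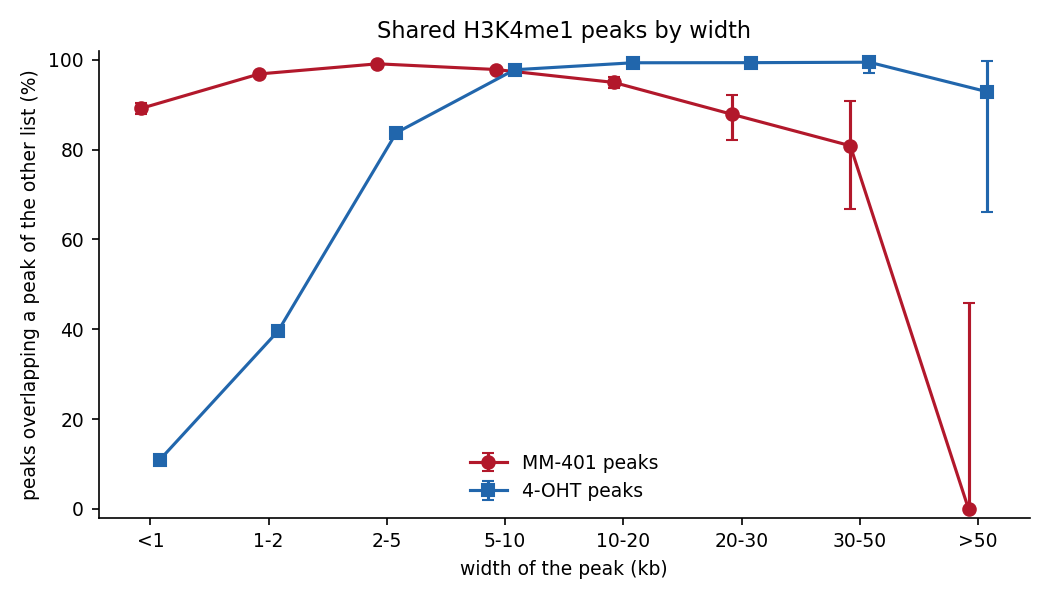
Share of peaks that overlap a peak of the other list, by width, for MM-401 and 4-OHT, with exact 95% binomial intervals. The 4-OHT share climbs with width and is above 90% from 5 kb up, while the MM-401 share peaks at 2 to 5 kb and comes down to 0 of 6 above 50 kb.

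The score that the caller gave did not follow the tags in these domains. MM-401 peaks above 50 kb had a median of 5210.5 tags and a median score of 91.9, against 452 tags and 893.74 at 5 to 10 kb. The score of the Tet1 peak was 66.27 and that of Rbpms 55.27, close to the lowest score of 50 that a listed peak can have. In the 4-OHT list the same held, with a median of 2357.39 at 5 to 10 kb and 339.39 above 50 kb. The widest 4-OHT peak lay over Pitpnc1, a lipid transfer protein (chr11:107399063-107469394, 70332 bp, 255 tags per M), with a score of 66.93, and MM-401 peaks covered 41.2% of it. The next 4-OHT peaks lay between genes on chromosome 15 (67426 bp, 94.4% covered by MM-401 peaks) and over Zmynd8, a chromatin reader (60732 bp, 99.6%), Ahdc1 (56382 bp, 99.7%) and Arid1a, a subunit of the BAF chromatin remodeller (55878 bp, 85.9%).

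H3K4me2 was still called in 4-OHT cells over most long stretches where H3K4me1 was called in MM-401 cells alone. There were 107 such stretches of at least 10 kb, 2.19 Mb in all, and 89.0% of their bases lay under 4-OHT H3K4me2 peaks. In 96 of the 107 the H3K4me2 cover was at least 80%. For scale, 4-OHT H3K4me2 overlapped 86.8% of all shared MM-401 peaks, counted by an overlap of at least 1 bp and not by bases. In MM-401 cells themselves 65.0% of the bases of the 107 stretches lay under H3K4me2. Tmem131 (50736 bp, 98.5% under 4-OHT H3K4me2), Elovl6, which lengthens fatty acids (36473 bp, 95.2%), Tlk1, a kinase of chromatin assembly (28833 bp, 99.1%), and several stretches of Etl4 were among them. The widest MM-401 peak, over Jarid2, went the other way, since 0% of its 68454 bp lay under 4-OHT H3K4me2, as did 0% of a neighbouring stretch of 13939 bp, while another Jarid2 stretch of 21533 bp lay under it in full (100%). At Kat6b, a histone acetyltransferase gene, 26.5% of 43743 bp and 11.5% of 19879 bp lay under 4-OHT H3K4me2. Whether the 4-OHT cells lacked H3K4me1 there or the caller passed the stretch over was not tested, since coverage outside peaks was not analysed here.

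Stretches of the opposite kind differed in their other marks, and which kind was more frequent turned on the length asked for. Of at least 5 kb there were 237 stretches (3.10 Mb) in MM-401 alone and 772 (5.53 Mb) in 4-OHT alone. H3K4me1 was called in 4-OHT cells alone over 71 stretches of at least 10 kb, 1.03 Mb in all, of which 23.1% of the bases lay under MM-401 H3K4me2 peaks and 55 had none. In 4-OHT cells themselves 55.6% of the bases of these 71 stretches lay under H3K4me2. For scale, MM-401 H3K4me2 overlapped 68.8% of shared 4-OHT peaks and 4-OHT H3K4me2 86.6%, by at least 1 bp and not by bases. Of at least 20 kb there were 38 stretches in MM-401 alone and 9 in 4-OHT alone. The 9 lay over Rybp, a subunit of Polycomb repressive complex 1 (54193 bp, 97.5% under MM-401 H3K4me2), Jade1 (46442 bp, 79.3%), Pitpnc1 (38648 bp, 63.2%), the receptor kinase gene Epha2 (34569 bp, 83.2%), Hnrnpc (27977 bp, 73.3%), the clathrin heavy chain gene Cltc (26534 bp, 67.8%), Bclaf1 with Mtfr2 (22251 bp, 0%), Hells (20859 bp, 0%) and Ythdf2 (20248 bp, 81.3%). For these 9 together 67.8% of the bases lay under MM-401 H3K4me2.

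Around transcription starts both lists drew the known pattern of H3K4me1 on the flanks with a dip over the start. It was measured at 13602 annotated starts with H3K4me3 in both treatments. The start itself lay under H3K4me1 at 52.1% of them in MM-401 cells and 65.1% in 4-OHT cells. Cover was highest 900 bp downstream, at 85.0% in MM-401 cells and 91.8% in 4-OHT cells. Upstream it was highest 700 bp before the start in MM-401 cells, at 76.2%, and 600 bp before it in 4-OHT cells, at 90.5%. At these highest points the lists were further apart upstream than downstream, and further out the gap was wider downstream. At 5 kb upstream cover was 22.1% in MM-401 cells and 33.0% in 4-OHT cells, and at 5 kb downstream it was 29.3% in MM-401 cells and 45.1% in 4-OHT cells. At 7029 starts without H3K4me3 in either treatment, 8.96% lay under H3K4me1 in MM-401 cells and 15.6% in 4-OHT cells.

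**Figure D4:**
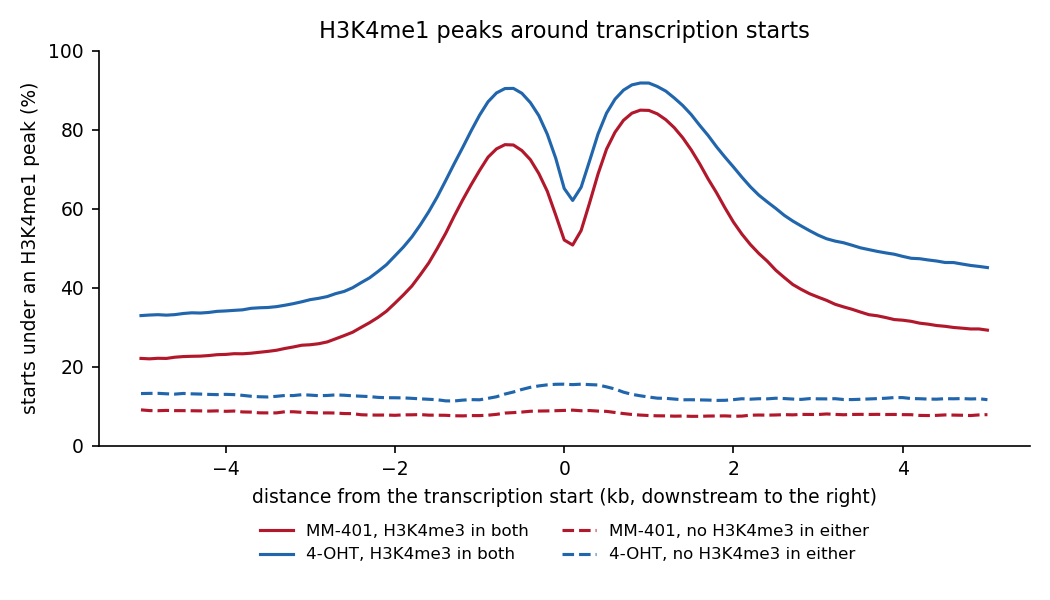
Percent of annotated starts under an H3K4me1 peak, by distance from the start in kb, for MM-401 and 4-OHT, at starts with H3K4me3 in both treatments (solid) and in neither (dashed). Both solid curves have a peak on each side of the start and a dip over it, to 52.1% in MM-401 and 65.1% in 4-OHT at the start itself, and the MM-401 curve is lower throughout.

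Promoter windows of this kind were also sorted by which list covered any of the 300 bases. RefSeq gave 21263 start windows for 17492 genes. Both lists covered 10681 of them, MM-401 alone 270, 4-OHT alone 2771 and neither 7541. Windows covered by MM-401 alone had a median of 26 CG and 65.0% G or C, those by 4-OHT alone 18 CG and 58.7%, those by both 18 CG and 60.3%, and those by neither 3 CG and 47.3%. H3K4me3 overlapped 85.9% of the MM-401-only windows in MM-401 cells and 87.8% in 4-OHT cells. It overlapped 76.4% of the 4-OHT-only windows in MM-401 cells and 81.6% in 4-OHT cells. For all windows the share was 64.3% in MM-401 cells and 66.7% in 4-OHT cells. For windows covered by both lists it was 90.4% in MM-401 cells and 93.5% in 4-OHT cells, and for those covered by neither 22.1% and 22.5%. Short sequences recognised by stem cell factors were counted on both strands: the octamer ATGCAAAT bound by Pou5f1 was in 1.85% of MM-401-only and 1.19% of 4-OHT-only windows, against 1.66% of all. AAGGTCA, a core bound by Esrrb, was in 3.70% of MM-401-only and 2.92% of 4-OHT-only windows, against 4.08% of all. ACAATG, a Sox2 core, was in 7.04% of MM-401-only and 8.30% of 4-OHT-only windows, against 11.0% of all. GGGTGTG, a Klf core, was in 10% of MM-401-only and 7.90% of 4-OHT-only windows, against 8.02% of all. Matches of different motifs were counted separately and may overlap, and a match describes the letters alone.

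Of 21887 protein-coding genes, 15140 had H3K4me1 at an end in both lists. Another 37 had it in MM-401 alone, 0.224% of the 16493 genes with it in either list, and 1316 had it in 4-OHT alone (7.98%). These counts moved with the length of the lists and with floors on the peaks: with the 4-OHT list cut to 82150 peaks they were 268 in MM-401 alone and 728 in 4-OHT alone. With a floor of 1.67 tags per M 140 genes were marked in MM-401 alone, and with a score of at least 100 in both lists 2685 were marked in 4-OHT alone. Most of these genes were weakly marked, at a median of 2.21 tags per M for MM-401 alone and 2.11 for 4-OHT alone. In 25 of the 37 genes of MM-401 alone and 1125 of the 1316 of 4-OHT alone no peak of the other list overlapped the one at the gene end. In the others an overlapping peak lay just beyond the 1 kb.

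Genes marked in MM-401 alone included a few with strong domains. Elobl, a relative of the elongin B gene, had 107 tags per M (102.5 to 111) over 9605 bp in MM-401 cells, against no peak in 4-OHT cells (chr11:88964520-88974124). At 11.1 tags per M per kb this was the densest of the 10 named, H3K4me2 and H3K4me3 of MM-401 cells overlapped it, and in 4-OHT cells H3K4me3 did and H3K4me2 did not. Zdbf2, an imprinted zinc finger gene, had 116 tags per M (111 to 120) over 28477 bp (chr1:63191910-63220386). Zfp982 had 25.2, Tmem267 8.91 and Il34, a ligand of the macrophage growth factor receptor, 5.90 tags per M. The other 5, Lyzl6, Wscd1, Ceacam10, Gm9508 and Gm8108, had 1.395 to 2.21 tags per M.

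Of the 1316 genes marked in 4-OHT alone, 51.1% had H3K4me2 at an end in MM-401 cells and 71.0% in 4-OHT cells. Among genes marked in both lists the shares were 96.9% in MM-401 cells and 98.7% in 4-OHT cells. Among genes marked in MM-401 alone the share was 37.8% in either. The 10 with the highest scores held 4.36 to 9.33 tags per M. Zfp763, a zinc finger gene, had no peak in MM-401 cells, against 9.33 tags per M (8.58 to 10.1) over 3384 bp in 4-OHT cells (chr17:33029631-33033014). Fastkd1, which acts on mitochondrial RNA, had 8.55 tags per M (7.84 to 9.31) over 3649 bp in 4-OHT cells. Slc6a12, a transporter of betaine and GABA, had 7.03, Rab44 6.62, Zfp953 6.61, Wdr1, which helps take apart actin filaments, 5.88, Zfp459 5.70, Adtrp 5.52, the neighbours Elp3 and Nuggc 5.31, and Igflr1 4.36. MM-401 H3K4me2 overlapped 7 of these 10 peaks and 4-OHT H3K4me2 all 10. Rab44, Slc6a12 and Zfp459 were the ones without it in MM-401 cells. Of all 4-OHT-specific peaks at gene ends, MM-401 H3K4me2 overlapped 45.0% and 4-OHT H3K4me2 65.8%.

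At genes with H3K4me1 in both lists, the sum of tags in all peaks reaching an end had a median log2 ratio of -0.22, with 33.2% of genes higher in MM-401. Scaled to tags in peaks the median was -0.02 with 48.7% higher, and per kb of peak it was 0.28 with 91.7% higher. At least 2-fold higher in MM-401 were 172 of 15140 genes (1.14%), and 2276 (15%) were at least 2-fold lower. Scaled to tags in peaks 263 were higher and 1659 lower. Per kb of peak 30 genes were at least 2-fold higher in MM-401 and 1 lower. The sums count whole peaks, so a wide domain that stops just short of the end in 1 list drops out of that list alone. Of the 2276 lower genes, 1252 had peaks over 10 kb in sum in either list, against 4320 of all 15140. A measure with fixed bounds, the share of bases covered within 5 kb of either end, had a median over all genes of 20.5% in MM-401 and 31.9% in 4-OHT. It was higher in MM-401 at 992 genes and higher in 4-OHT at 16616, and by at least 25 points at 24 genes for MM-401 and 1887 for 4-OHT.

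Among the 12377 genes with at least 100 tags in each library, those with the highest ratio had a wide MM-401 domain at an end and a short 4-OHT peak. Atf1, a factor that answers cyclic AMP (chr15:100227859-100261248), had 81.1 tags per M (77.4 to 85.0) over 20775 bp in MM-401 cells and 5.18 (4.63 to 5.78) over 2540 bp in 4-OHT cells, a log2 ratio of 3.97. Within 5 kb of its ends MM-401 peaks covered 80.6% and 4-OHT peaks 12.7% of the bases, while H3K4me2 stood at 59.0 tags per M in MM-401 cells and 86.2 in 4-OHT cells. Bcat1, which breaks down branched-chain amino acids, followed at 72.0 tags per M in MM-401 cells and 5.05 in 4-OHT cells, with 50% of the bases covered in MM-401 and 15.5% in 4-OHT. Ywhag, a 14-3-3 protein, had 148 tags per M in MM-401 cells and 12.4 in 4-OHT cells, with 89.3% covered in MM-401 and 18.7% in 4-OHT. Mtf2, a partner of Polycomb repressive complex 2, had 88.5 tags per M in MM-401 cells and 8.79 in 4-OHT cells, with 60.4% covered in MM-401 and 23.1% in 4-OHT. Pcbp2, an RNA-binding protein, had 22.7 tags per M in MM-401 cells and 2.27 in 4-OHT cells, with 42.9% covered in MM-401 and 6.54% in 4-OHT.

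In Mapk13, Slc25a13, Mt1, Tmem131 and Rhof the log2 ratio was 3.12 to 3.54. With fixed bounds the difference was small or lay the other way at 3 of these 5. At Mt1, a metallothionein, 93.4% was covered in MM-401 and 90.7% in 4-OHT. At Tmem131 the cover was 43.5% in MM-401 and 50.04% in 4-OHT, and at Rhof 56.9% in MM-401 and 80.8% in 4-OHT. The full span of the peaks reaching the ends in either list was also measured at the 10 highest genes. MM-401 peaks covered 48.6% (Slc25a13) to 100% (Mt1) of these spans and 4-OHT peaks 3.82% (Pcbp2) to 98.4% (Mt1). At Rhof the span was covered to 67.9% in MM-401 and 87.4% in 4-OHT.

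The genes with the lowest ratio among these 12377 had the reverse form at their ends. Jade1, part of a histone acetyltransferase complex (chr3:41555734-41616864), had 7.29 tags per M (6.21 to 8.50) over 3586 bp in MM-401 cells and 216 (212 to 220) over 61885 bp in 4-OHT cells, a log2 ratio of -4.89. Within 5 kb of its ends MM-401 covered 52.3% and 4-OHT 90.0%, and H3K4me2 stood at 262 tags per M in MM-401 cells and 327 in 4-OHT cells. Tanc1, a scaffold of synapses, had 5.18 tags per M in MM-401 cells and 147 in 4-OHT cells, with 44.7% covered in MM-401 and 60.4% in 4-OHT. Yy1, a zinc finger factor, had 5.04 tags per M in MM-401 cells and 89.9 in 4-OHT cells, with 24.9% covered in MM-401 and 76.1% in 4-OHT. The cover of Gins2, part of the replicative helicase, was 17.6% in MM-401 and 69.9% in 4-OHT, and that of Dstn, which takes apart actin, 18.98% in MM-401 and 92.1% in 4-OHT. Nufip2, Adnp, Rab19 and 1810013L24Rik were also among the 10 lowest, at log2 ratios of -4.67 to -4.10. Cover was lower in MM-401 at all 10 genes. Over the full span of the peaks reaching the ends in either list, MM-401 peaks covered 21.7% (Jade1) to 78.4% (1810013L24Rik). 4-OHT peaks covered 72.3% (Tanc1) to 97.6% (Adnp) of these spans. At Gins2 the span was covered to 78.2% in MM-401 and 96.4% in 4-OHT, and at Dstn to 26.0% in MM-401 and 96.8% in 4-OHT. Per kb of peak the log2 ratio was between -0.84 and 0.20 at these 10 genes.

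Gene lists by function were described by their counts and medians beside all genes, where the median log2 ratio was -0.22, 33.2% of genes stood above 0, and 15% were at least 2-fold lower in MM-401. The lists were chosen with earlier results of these data known, and nothing was tested on them. Core pluripotency factors had H3K4me1 at an end in both lists at 14 of 14 genes, with a median log2 ratio of -0.07. Pou5f1, the Oct4 gene, had 80.7 tags per M in MM-401 cells and 75.3 in 4-OHT cells. Sox2 had 42.9 in MM-401 cells and 42.3 in 4-OHT cells, and Nanog had 69.8 in MM-401 cells and 91.3 in 4-OHT cells. Utf1, a chromatin factor of undifferentiated cells, had 79.2 in MM-401 cells and 44.4 in 4-OHT cells. Of the 14, 0 were at least 2-fold higher in MM-401 and 3 at least 2-fold lower, against 1.14% and 15% of all genes. They were Dppa4 (20.03 tags per M in MM-401 cells and 127 in 4-OHT cells), Sall4 (30.5 in MM-401 cells and 87.7 in 4-OHT cells) and Zfp281 (33.4 in MM-401 cells and 83.3 in 4-OHT cells). Dppa4 and its neighbour Dppa2 share a 4-OHT peak of 47920 bp. Within 5 kb of the ends the median cover of the list was 80.5% in MM-401 and 91.2% in 4-OHT.

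Naive pluripotency genes, which hold the ground state of stem cells, had a median of -0.28 with 6 of 16 above 0 and 2 at least 2-fold lower, counts near the shares over all genes. Esrrb, a nuclear receptor of this network, had 6.48 tags per M over 3820 bp in MM-401 cells and 91.7 over 25293 bp in 4-OHT cells, while the cover within 5 kb of its ends was 54.5% in MM-401 and 71.3% in 4-OHT. Tfcp2l1, a transcription factor of the same network, had 41.7 tags per M over 12899 bp in MM-401 cells and 162 over 51106 bp in 4-OHT cells, with 73.9% covered in MM-401 and 87.0% in 4-OHT. Klf2 had 63.0 tags per M in MM-401 cells and 49.9 in 4-OHT cells. Socs3, a target of LIF signalling, had 96.1 in MM-401 cells and 79.1 in 4-OHT cells.

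Formative and primed genes, which come up as cells leave the naive state, stood at a median of 0.20 with 11 of 12 above 0 and 0 past 2-fold. Otx2 had 78.3 tags per M in MM-401 cells and 60.5 in 4-OHT cells, and Lefty2, a Nodal antagonist, had 42.5 in MM-401 cells and 30.3 in 4-OHT cells. The exception was Foxp1, at 6.75 in MM-401 cells and 9.20 in 4-OHT cells.

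The lists of early lineages stood above the median of all genes, and the Hox and neuroectoderm genes did so over regions of nearly the same width. The Hox list, the clustered genes that pattern the body axis, had a median log2 tag ratio of 0.33 with 30 of 39 above 0. Its median log2 width ratio was -0.06. Its median log2 tags per kb ratio was 0.39 with 39 of 39 above 0, against 0.28 and 91.7% over all genes with a peak in both lists. Neighbouring Hox genes share peaks and do not count as separate. Hoxd4 (28.0 tags per M in MM-401 cells and 12.6 in 4-OHT cells) and Hoxd10 (32.6 in MM-401 cells and 14.9 in 4-OHT cells) were the 2 past 2-fold, both higher. Hoxd1 had 2.03 in MM-401 cells and 3.48 in 4-OHT cells. Neuroectoderm genes stood at 0.24 with 12 of 14 above 0, at a width ratio of -0.05. Sox1, an early neural marker, had 32.3 tags per M in MM-401 cells and 20.8 in 4-OHT cells.

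Primitive endoderm genes stood at 0.25 with 6 of 8 above 0. Gata6, which specifies this lineage, had 26.8 tags per M in MM-401 cells and 22.9 in 4-OHT cells, while Gata4 and Afp had a peak in 4-OHT alone, at 0.874 and 2.17 tags per M. Trophectoderm genes stood at 0.19 with 7 of 9 above 0. Eomes had 38.5 tags per M in MM-401 cells and 19.5 in 4-OHT cells. Gata3 (16.02 in MM-401 cells and 38.2 in 4-OHT cells) and Tead4 (41.4 in MM-401 cells and 104 in 4-OHT cells) were at least 2-fold lower in MM-401. Primitive streak and mesoderm genes stood at 0.13 with 8 of 13 above 0. Gsc had 31.5 tags per M in MM-401 cells and 24.7 in 4-OHT cells, Wnt3a had 7.52 in MM-401 cells and 11.4 in 4-OHT cells, and Msgn1 had a peak in 4-OHT alone (3.53).

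Of the lists, blood and germline held the highest numbers of genes marked in 4-OHT alone. They were 4 of the 9 blood genes and 3 of the 11 germline genes marked in either list, against 7.98% of all genes so marked. Germline and meiosis genes had H3K4me1 in MM-401 at 8 of 12 and in 4-OHT at 11 of 12. Of the 8 with it in both, 0 were above 0, with a median of -0.39. Sycp1, of the meiotic chromosome axis (8.03 tags per M), Tex11 (2.27) and Taf7l (1.21) were marked in 4-OHT alone. Dazl, an RNA-binding protein of germ cells, had 2.30 tags per M in MM-401 cells and 7.04 in 4-OHT cells, and Stra8, which starts meiosis, had 12.8 in MM-401 cells and 29.7 in 4-OHT cells. Blood and endothelium genes had a peak at 5 of 10 in MM-401 and 9 of 10 in 4-OHT, with Gata1, Ikzf1, Spi1 and Cd34 in 4-OHT alone at 1.54 to 2.66 tags per M. Tal1 had 13.6 in MM-401 cells and 10.5 in 4-OHT cells, and Gata2 had 5.90 in MM-401 cells and 13.1 in 4-OHT cells. Mesenchyme genes had a peak at 8 of 10 in MM-401 and 10 of 10 in 4-OHT, with Acta2 (1.12) and Dcn (1.46) in 4-OHT alone. Over all 4-OHT peaks of 1 to 2 tags per M, 22.2% were shared with MM-401.

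Genes of the H3K4 machinery stood below the median of all genes by tag sums. The methyltransferases and their shared subunits had a median of -0.44 with 3 of 14 above 0 and 5 at least 2-fold lower, against 33.2% and 15% of all genes. Kmt2a had 19.04 tags per M (17.3 to 20.9) in MM-401 cells and 43.9 (42.3 to 45.6) in 4-OHT cells. Its closest relative Kmt2b had 32.8 in MM-401 cells and 94.6 in 4-OHT cells, Setd1a had 13.0 in MM-401 cells and 36.6 in 4-OHT cells, Wdr5 had 19.8 in MM-401 cells and 40.8 in 4-OHT cells, and Dpy30 had 17.2 in MM-401 cells and 58.4 in 4-OHT cells. Kmt2c, an enzyme that writes H3K4me1 at enhancers, had 12.9 in MM-401 cells and 12.0 in 4-OHT cells, and its relative Kmt2d stood at a log2 ratio of -0.31. Setd1b had 83.4 in MM-401 cells and 49.3 in 4-OHT cells. Cover within 5 kb of the Kmt2a ends was 44.0% in MM-401 and 46.2% in 4-OHT. The 5 demethylase genes stood at -0.84 with 0 above 0, and their median cover was 22.0% in MM-401 and 60.7% in 4-OHT. Kdm5b had 6.66 tags per M in MM-401 cells and 21.0 in 4-OHT cells, and Kdm1a had 55.7 in MM-401 cells and 99.95 in 4-OHT cells.

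Signalling and housekeeping genes stood between these. FGF and MAPK signalling had a median of 0.08 with 8 of 12 above 0. Etv5, a factor downstream of FGF, had 269 tags per M over 61765 bp in MM-401 cells and 33.5 over 13195 bp in 4-OHT cells. The receptor gene Fgfr1 had 4.46 over 1937 bp in MM-401 cells and 103.2 over 35257 bp in 4-OHT cells. Cover within 5 kb was 72.4% in MM-401 and 74.8% in 4-OHT at Etv5, and 63.3% in MM-401 and 72.2% in 4-OHT at Fgfr1. Wnt signalling stood at 0.18 with 8 of 14 above 0. The kinase gene Gsk3b had 22.8 tags per M in MM-401 cells and 4.24 in 4-OHT cells, and Axin2, a target of the pathway, had 4.73 in MM-401 cells and 10.4 in 4-OHT cells. Retinoid and vitamin D signalling stood at -0.03 with 7 of 14 above 0 and 0 past 2-fold. Housekeeping genes stood at -0.19 with 4 of 15 above 0. Gapdh had 65.3 tags per M in MM-401 cells and 55.2 in 4-OHT cells, Ywhaz had 1.98 in MM-401 cells and 9.47 in 4-OHT cells, and Hprt had a peak in 4-OHT alone, at 16.1.

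**Figure D5:**
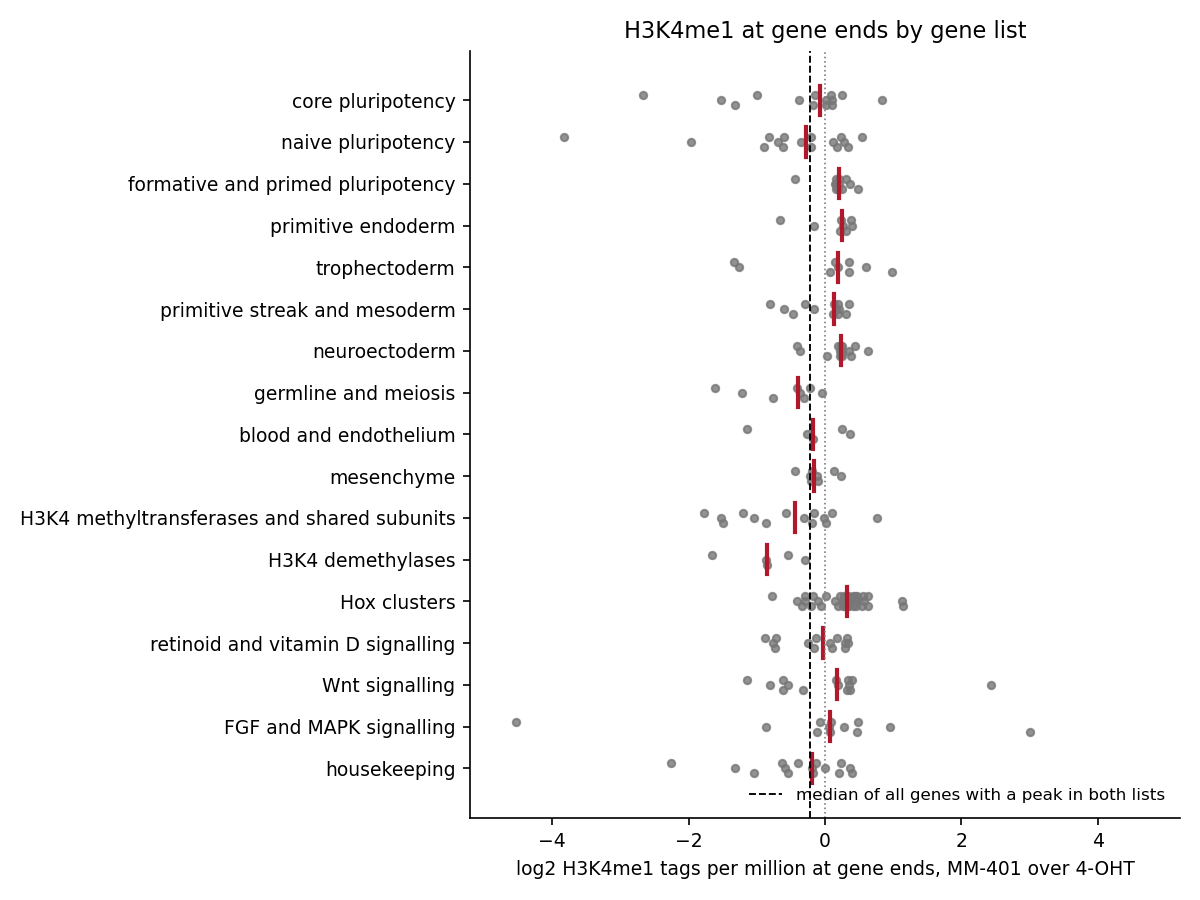
Log2 ratio of H3K4me1 tags per M at gene ends, MM-401 over 4-OHT, for every gene of 17 lists with a peak in both libraries (points), with the median of each list (bar) and of all genes (dashed line, -0.22). Hox, neuroectoderm and primitive endoderm genes centre near 0.2 to 0.3, the H3K4 machinery below the line, and single genes such as Fgfr1 and Etv5 lie far out on either side.

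Away from gene ends the specific peaks with the highest scores lay inside genes. In MM-401 alone these were 2 domains of Msi2, an RNA-binding protein (chr11:88685740-88700540, 71.6 tags per M, 68.1 to 75.2, and chr11:88545633-88563936, 84.2 tags per M), and a domain each in Gatad2a of the NuRD complex (chr8:69933616-69944887, 51.4), the kinase gene Dyrk1a (chr16:94596301-94610044, 46.7) and Spred2, an inhibitor of Ras signalling (chr11:19975756-19999056, 99.8). All 5 were 11272 to 23301 bp wide. H3K4me2 peaks covered 39.2% to 84.6% of them in MM-401 cells and 87.5% to 100% in 4-OHT cells. In 4-OHT alone the highest scores lay in the chromatin remodeller gene Atrx (chrX:105888830-105898715, 15.1 tags per M, 14.1 to 16.1), Slc13a2 (chr11:78399127-78402825, 8.95), the mitochondrial ribosome gene Mrpl15 (chr1:4774833-4781845, 13.8), the chaperonin gene Cct3 (chr3:88310873-88317276, 12.2) and Zkscan2 (chr7:123497453-123502068, 10.2), at 3699 to 9886 bp. MM-401 H3K4me2 covered 0% of the first 4 and 68.4% of the peak in Zkscan2, and 4-OHT H3K4me2 covered 15.6% to 74.1%. These 5 specific peaks of MM-401 thus lay on H3K4me2 in both treatments, and 4 of the 5 of 4-OHT lay on H3K4me2 in 4-OHT cells alone. The 5 of MM-401 were also the wider ones. Of shared MM-401 peaks away from gene ends, 4-OHT H3K4me2 overlapped 82.8% and MM-401 H3K4me2 57.4%. Whether the contrast goes beyond these differences in width and in the H3K4me2 lists was not tested.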

How the data were processed

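Chromatin immunoprecipitation and sequencing of H3K4me1 was compared between 1 MM-401 and 1 4-OHT library. Per the file headers the authors called peaks in each library against its input with MACS 1.4.2 at a p cutoff of 1e-05, after removal of duplicate tags (a rate of 0.51 in MM-401 and 0.36 in 4-OHT), with a fragment model of 208 bp in MM-401 and 194 bp in 4-OHT. The submitters' processing notes name Bowtie2, SAMtools 1.5, MACS2 and mm10, so the sources give the caller in 2 versions, of which that of the headers was taken. The authors deposited for each peak the unscaled counts of tags in it. Their deposited score, on a negative log10 scale of the caller's p times 10, reaches at most 3233.06 and was used to rank within a list alone. A false discovery rate in percent, as deposited, was at most 7.69% in MM-401 and 1.23% in 4-OHT. The deposited fold (a ratio of the summit over background) was not used.

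Peaks on 21 nuclear chromosomes were overlapped in Python 3.11.15 with numpy 2.4.6 and pandas 2.3.3. Tags were divided by the filtered tags of the library in M. Overlapping peaks were chained into shared regions, and tags and widths summed per list. Genes are 21887 protein-coding genes of RefSeq GRCm38.p6, with tags summed over peaks within 1 kb of either end. Intervals are exact at 95% (Clopper-Pearson for shares, Poisson for tags, scipy 1.17.1) and cover counting error only. PCR duplicates had been removed without molecular identifiers. A fold of 2 counted as different. The overlap and ratio steps were tested on simulated data.

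Genes named are those of 17 lists, the 10 highest scores among genes marked in 1 list alone, the 10 highest and 10 lowest ratios among 12377 genes with at least 100 tags in each library, the 5 highest-scoring specific peaks away from gene ends and the 5 widest peaks of each list. Some genes these rules name are not reported here. The long stretches in 1 list alone and the genes quoted for them were chosen after their values were seen. The comparison, members and lists were chosen with earlier results of these data known. Alternatives were another overlap, equal list lengths, floors on score and on tags, joined peaks, a 2.5 kb window, regions of 1 peak each, scaling to tags in peaks and at least 50 tags per library.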

Additional observations from a re-analysis of the deposited data

How the results depend on the processing

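No test was run because each treatment was 1 library, and leaving out a replicate was not possible for the same reason. No paired analysis was possible because the treatments share no replicate that could be matched. With an overlap of at least 50% of the peak, 97.3% of MM-401 peaks and 56.7% of 4-OHT peaks were shared, with 76.6% of 4-OHT peaks at gene ends and, away from them, 96.6% of MM-401 and 51.2% of 4-OHT peaks. With the 4-OHT list cut to 82150 peaks, 90.0% of MM-401 and 80.6% of 4-OHT peaks were shared, 95.9% of MM-401 and 90.5% of 4-OHT peaks at gene ends and 87.9% of MM-401 and 76.8% of 4-OHT peaks away from them. The medians of log2 tags per M were then -0.050 at gene ends and -0.035 away, the width median away -0.24, and 268 genes were marked in MM-401 alone and 728 in 4-OHT alone. With a score of at least 100 in both lists, 98.1% of MM-401 and 53.1% of 4-OHT peaks were shared, 70.8% of 4-OHT peaks at gene ends, and 97.6% of MM-401 and 47.2% of 4-OHT peaks away. The tag medians were -0.032 at gene ends and 0.046 away, the width median away -0.19, and 2685 genes were marked in 4-OHT alone. With a floor of 1.67 tags per M in both lists, the shares were 94.3% of MM-401 and 74.6% of 4-OHT peaks over all, 97.9% of MM-401 and 88.2% of 4-OHT peaks at gene ends, and 92.9% of MM-401 and 69.8% of 4-OHT peaks away. Away from gene ends the tag median was -0.016 and the width median -0.23, and 140 genes were marked in MM-401 alone. The cut list and the floor on tags thus moved the count of genes marked in MM-401 alone by more than 1.5 times, while the floor on score gave 31.

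With peaks within 1 kb joined, the shares were 97.7% of MM-401 and 61.9% of 4-OHT peaks over all, 99.4% of MM-401 and 86.3% of 4-OHT peaks at gene ends, and 97.1% of MM-401 and 55.9% of 4-OHT peaks away, with tag medians of -0.11 at gene ends and -0.025 away and width medians of -0.31 at gene ends and -0.26 away. With a gene end window of 2.5 kb, 99.0% of MM-401 and 79.0% of 4-OHT peaks at gene ends were shared, and 54.5% of 4-OHT peaks away. Leaving out peaks over 10 kb, chosen after seeing the data, gave 59.8% of 4-OHT peaks shared, 81.6% at gene ends and 54.2% away. The tag medians at gene ends and away were -0.025 and 0.011 for regions of 1 peak in each list, 0.16 and 0.21 scaled to tags in peaks, and -0.030 and 0.033 with at least 50 tags in each library. The sign of the median away from gene ends thus changed with the setting. Both width medians stayed below 0 in every setting tried. No setting made the depths of the libraries equal, so these settings cannot separate width from depth.

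Of 45 named genes past 2-fold by tag sums, scaling to tags in peaks kept 41 past it and 4 below it in the same direction. Per kb of peak, 5 stayed past 2-fold, 24 kept the direction below it, and 16 turned to higher in MM-401 by log2 values of 0.20 for Dstn, 0.37 for Sall4, 0.24 for Zfp281, 0.029 for Tfcp2l1, 0.15 for Tead4, 0.061 for Dazl, 0.14 for Stra8, 0.086 for Gata2, 0.21 for Kmt2a, 0.44 for Setd1a, 0.39 for Wdr5, 0.28 for Kdm5b, 0.53 for Axin2, 0.14 for Ywhaz, 0.082 for Eef1a1 and 0.58 for Gusb. Tag sums of genes therefore reflect how much chromatin the peaks span as well as how dense they are. Depth limits the weak end of both lists: an MM-401 peak of 1.67 tags per M rests on 37 tags, against 103 in 4-OHT.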
